A study of Mus musculus with 6 samples.

Results

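DNA methylation was examined at 42 genes of the Wnt pathway in lung endothelial cells, chosen by name: 18 Wnt ligands, 12 receptors (10 Frizzled genes, Lrp5 and Lrp6), 6 effectors (Ctnnb1, Tcf7, Tcf7l1, Tcf7l2, Lef1 and the target gene Axin2) and 6 regulators (Rspo3, Lgr4, Dkk2, Dkk3, Sfrp1 and Sfrp2). They are 42 of 20665 protein-coding genes on the 19 autosomes, and the gene spans with 5 kb on either side hold 2133 of the 1683697 windows of 1000 bp that had a value in all 6 samples. The cells were lung endothelial cells of wild-type mice, isolated by flow cytometry, with no other allele or treatment named in the labels. The 3 samples titled mAdu were taken as the 8-month group and the 3 titled aged as the 18-month group, because the design text names both ages without tying them to the sample titles. Whether samples of 1 group come from different animals is not stated in the labels. The p-values therefore weigh the difference between groups against the spread of these samples alone, and that spread may be technical. The assay was T-WGBS, tagmentation-based bisulfite sequencing of the whole genome, in which a transposase fragments a small amount of DNA and bisulfite converts unmethylated cytosines. The table gives a mean methylation level per window and no read coverage, so the depth is unknown, no counting error can be attached to a value, and the spread over samples is the only measure of precision.

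Wnt proteins are secreted, lipid-modified ligands that bind Frizzled receptors together with the co-receptors Lrp5 or Lrp6. In the canonical branch this binding keeps the degradation of beta-catenin, the product of Ctnnb1, in check, and beta-catenin then acts with the Tcf and Lef transcription factors on target genes such as Axin2, itself a negative regulator of the pathway. R-spondins such as Rspo3, acting through Lgr receptors, raise the amount of Frizzled at the cell surface, whereas Dickkopf proteins of the Dkk2 type and secreted Frizzled-related proteins restrain the signal. In vessels the pathway is known for angiogenesis and barrier formation, with Fzd4 and Lrp5 required for the retinal vasculature, and in the lung for the development of both airway and vessel. Methylation of CpG sites is typically low over CpG-rich gene starts and high over gene bodies.

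The 42 Wnt pathway genes were far less methylated at their ends than protein-coding genes in general, at both ages. The end of a gene was measured from 1000 bp outside to 500 bp inside its edge, and of its ends the less methylated one, by the mean of all 6 samples, was used. Strand was known for 79.6% of protein-coding genes, under the 80% set for using the start side, and for 30 of the 42 genes. The median level over the 42 ends was 9.32%, against 33.3% over 19091 protein-coding genes, and 28 of the 42 ends lay under 20%, against 29.6% of all genes. Receptor ends were the lowest, with a median of 5.67%, followed by regulators with 8.06%, ligands with 11.5% and effectors with 16.7%. Each end level is a mean of 1 to 3 windows, and some of these can lie outside the unmethylated stretch at the edge. The end of Fzd1, for example, lay at 25.3%. The 3 adjacent windows under 20% at its edge lay at 2.69% in mAdu and 2.60% in aged. The order of the roles can therefore also reflect where windows fall. Bodies, from 500 bp inside each edge, had a median of 60.6% in the 40 genes with at least 3 windows, against 73.3% over 17534 genes. Receptor bodies had a median of 48.6% and ligand bodies of 58.1%, while regulators had 72.4% and effectors 74.8%. Fzd9 and Fzd10, whose bodies hold 2 windows each, have no body value. Levels by role are descriptions, and differences between roles were not tested.

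The sample values of a gene lay close together (the plot of levels by sample). The median SD over the 3 samples of a group was 0.866 points in mAdu and 0.936 points in aged at ends, and 0.520 and 0.681 points over bodies. The mean level of all windows in the Wnt loci was 68.8%, 68.6% and 68.7% in the mAdu samples and 68.4%, 68.5% and 69.0% in the aged samples, so the groups overlapped. Windows under 20% numbered 206, 210 and 213 in mAdu and 218, 209 and 210 in aged. Endothelial marker genes, listed for a check of the sort, had a median of 17.5% at 10 ends and 45.3% over 9 bodies. Epithelial markers had 29.6% and 69.6%, mesenchymal markers 22.9% and 67.0%, and haematopoietic markers 60.1% and 71.2%. Single ends ranged from 0.911% to 43.9% for endothelial and from 1.86% to 65.8% for epithelial markers. They ranged from 3.47% to 71.5% for mesenchymal and from 29.7% to 83.9% for haematopoietic markers. The lists thus overlapped, and the purity of the sort was not tested. In such bulk samples an intermediate level can come from a share of the cells or of the alleles, and these cannot be told apart.

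**Figure D1:**
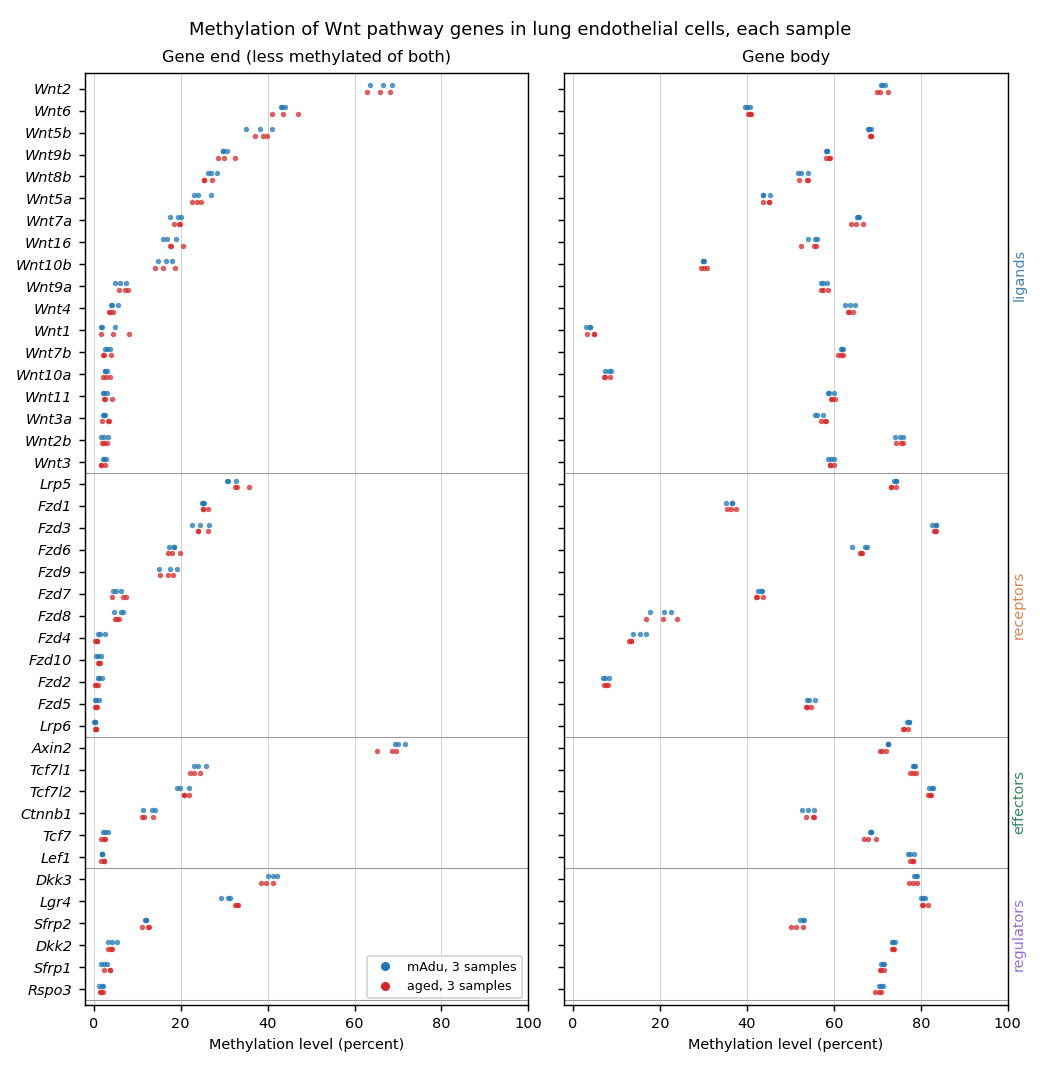
Methylation level in percent (x axis) of each Wnt pathway gene (y axis, grouped by role and ordered by the level at the end) at the gene end (left) and over the gene body (right). Each point is 1 sample, 3 mAdu in blue and 3 aged in red. The points of both groups overlap for most genes, and the ends of 28 of 42 genes lie under 20%.

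RefSeq promoters of build GRCm38.p6, which run from 250 bases before to 50 bases after the start, were available for 30 of the 42 genes. They held a median of 31.5 CpG sites per 300 bases, from 6 in Wnt8b to 58 in Wnt9a, and 29 of the 30 held at least 10. Over all 32851 RefSeq promoters the median was 7, and 43.5% held at least 10. The GC content had a median of 71.5% against 52.7%. The level around these starts had a median of 11.2%, with 23 of 30 under 20%, against 32.4% over 15852 genes. Across the 30 genes the CpG count and the start level had a Pearson r of -0.388 and a Spearman rho of -0.245, as a description of genes that share the same 6 libraries (the plot of CpG content and start level).

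**Figure D2:**
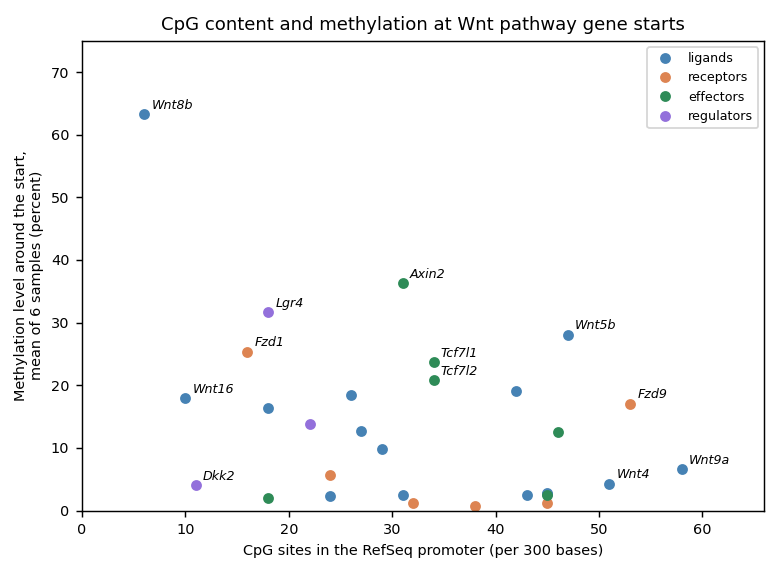
Methylation level around the RefSeq start in percent, as the mean of 6 samples (y axis), against the number of CpG sites in the RefSeq promoter of 300 bases (x axis), for 30 Wnt pathway genes. Each point is 1 gene, coloured by role. Wnt8b, with 6 CpG sites, is the most methylated at 63.3%, and Axin2 follows at 36.3%.

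The sequences of 5 promoters are given because the results turn on them: Fzd4 and Lgr4 had the smallest p-values with age at an end, Fzd5 had the least methylated start, and Wnt8b and Axin2 had the most methylated starts. Each runs 5′ to 3′ over the 250 bases before the start, from RefSeq GRCm38.p6, with CpG sites in capitals.
Fzd4 (chr7:89404116-89404365, plus strand, 25 CpG sites): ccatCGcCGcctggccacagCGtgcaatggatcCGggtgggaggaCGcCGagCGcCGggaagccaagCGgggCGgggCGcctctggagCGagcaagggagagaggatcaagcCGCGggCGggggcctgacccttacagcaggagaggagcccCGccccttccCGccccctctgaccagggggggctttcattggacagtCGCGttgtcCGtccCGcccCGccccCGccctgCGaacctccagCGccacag
Fzd5 (chr1:64737751-64738000, minus strand, 32 CpG sites): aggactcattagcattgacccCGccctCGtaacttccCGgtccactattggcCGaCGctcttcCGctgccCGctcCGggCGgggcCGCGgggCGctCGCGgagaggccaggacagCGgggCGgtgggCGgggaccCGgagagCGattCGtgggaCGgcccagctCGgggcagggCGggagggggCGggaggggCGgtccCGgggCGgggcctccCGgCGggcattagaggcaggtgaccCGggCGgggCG
Axin2 (chr11:108920099-108920348, plus strand, 24 CpG sites): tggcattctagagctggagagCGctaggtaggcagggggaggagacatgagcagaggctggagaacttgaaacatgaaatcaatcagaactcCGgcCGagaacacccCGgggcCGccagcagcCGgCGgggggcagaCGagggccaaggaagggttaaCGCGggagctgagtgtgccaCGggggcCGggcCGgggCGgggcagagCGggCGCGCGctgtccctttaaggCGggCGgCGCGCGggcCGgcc
Lgr4 (chr2:109917397-109917646, plus strand, 10 CpG sites): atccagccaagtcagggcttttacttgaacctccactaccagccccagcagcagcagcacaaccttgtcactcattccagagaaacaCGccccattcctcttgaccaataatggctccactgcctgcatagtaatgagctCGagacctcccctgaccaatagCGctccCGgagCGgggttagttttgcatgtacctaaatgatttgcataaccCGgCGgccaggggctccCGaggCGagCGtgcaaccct
Wnt8b (chr19:44493222-44493471, plus strand, 5 CpG sites): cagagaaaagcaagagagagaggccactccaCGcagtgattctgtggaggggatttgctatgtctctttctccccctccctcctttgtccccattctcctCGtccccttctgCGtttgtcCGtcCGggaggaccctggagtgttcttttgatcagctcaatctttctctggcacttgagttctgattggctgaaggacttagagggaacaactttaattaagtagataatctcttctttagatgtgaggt
Fzd5 holds the most CpG sites of the 5 and Wnt8b the fewest. Of the 5, only the promoter of Wnt8b lies in a methylated window, at 58.3% in mAdu and 60.4% in aged (chromosome 19, 44493001 to 44494000). The window of the Axin2 promoter (chromosome 11, 108920001 to 108921000) had 0.459% and 1.64%, and that of Lgr4 (chromosome 2, 109917001 to 109918000) had 2.47% and 3.03%. The higher start levels of Axin2 and Lgr4 come from methylated neighbouring windows that share the measured stretch. Binding sequences of Tcf and Lef factors were searched as CTTTGAT and CTTTGAA on both strands of the 300 bases. Wnt11 was the only gene of the 30 with a match, and 8.65% of all RefSeq promoters, the larger set named above, held one.

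The ligands had the most varied loci. At the edge of the gene the lowest ends were those of Wnt3 (2.25%), Wnt2b (2.46%) and Wnt3a (2.64%). The samples of Wnt3, a ligand of gastrulation and limb development, lay at 2.40%, 2.25% and 2.78% in mAdu against 1.74%, 1.70% and 2.63% in aged, with overlap. Wnt2b had 2.36%, 1.72% and 3.35% in mAdu against 3.12%, 2.31% and 1.92% in aged, and Wnt3a had 2.39%, 2.64% and 2.13% in mAdu against 1.86%, 3.29% and 3.56% in aged. Both overlapped. The highest ends were those of Wnt2 (65.9%), Wnt6 (43.6%) and Wnt5b (38.4%). Wnt2, a ligand of early lung development, had 68.6%, 63.5% and 66.6% in mAdu against 63.0%, 65.8% and 68.1% in aged. The groups overlapped, as they did in Wnt6, with 43.0%, 44.0% and 43.4% in mAdu against 40.9%, 43.6% and 47.0% in aged, and in Wnt5b, with 41.0%, 35.0% and 38.2% in mAdu against 39.9%, 37.2% and 38.9% in aged. The Wnt2 gene span runs past its RefSeq start, around which the level was 12.7%, and a stretch of 2 windows there (chromosome 6, 18030001 to 18032000) lay at 2.14% in mAdu and 1.73% in aged. The same holds for Wnt6, with 2.51% around its RefSeq start, and for Wnt9b, with 9.83% there and 30.2% at its edge. For Wnt1, Wnt6 and Wnt8b the less methylated end was the far end of the gene, not the start side.

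Between these extremes lay Wnt7b (2.99%), Wnt10a (2.86%), Wnt11 (2.77%), Wnt1 (3.81%), Wnt4 (4.27%) and Wnt9a (6.60%), and then Wnt10b (16.4%), Wnt16 (17.9%), Wnt7a (19.2%), Wnt5a (24.2%) and Wnt8b (26.6%). Wnt5a, a ligand best known for non-canonical signalling, had 27.0%, 24.1% and 23.1% in mAdu against 22.7%, 24.6% and 23.9% in aged at its end. Its 2 outer windows differ widely, with 69.6% in mAdu and 66.9% in aged for the outer one (chromosome 14, 28503001 to 28504000) and 3.76% and 3.83% for the next, so its end level averages over a boundary. Wnt5a held a second stretch of unmethylated windows inside the gene, from 28509001 to 28512000, with group means between 0.542% and 2.11%.

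Long unmethylated stretches were most frequent among ligands. The longest run of adjacent windows under 20% had a median of 4.5 kb over the 18 ligands, 3 kb over receptors and effectors, 2.5 kb over regulators and 2 kb over all 20665 genes. A run of at least 5 kb, counted in full where it reached past the locus, overlapped 12 of the 42 loci (28.6%), 9 of them ligands. For all protein-coding genes the share was 3.90%. Each of the 42 loci had at least 1 such window, whereas 26.3% of all genes had none. Wnt10a, a ligand of tooth and skin appendage development, had the longest run, 12 kb (chromosome 1, 74797001 to 74809000), at 8.76%, 10.4% and 10.4% in mAdu against 9.67%, 8.73% and 7.92% in aged. Its whole body lay at 7.89%, the second lowest of the ligands after Wnt1 with 3.98%, and Wnt10b followed with 30.1%. The next longest runs were those of Wnt7b (8 kb at 4.90% in mAdu and 4.86% in aged), Wnt6 (7 kb), Lef1 (7 kb) and Wnt11 (6 kb at 3.91% and 4.41%).

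Several of these ligands are neighbours in the genome, and a run can belong to both. Wnt6 and Wnt10a lie side by side on chromosome 1, and the 7 kb run counted for Wnt6 (74789001 to 74796000, at 6.38% in mAdu and 6.74% in aged) reaches past the edge of Wnt10a at 74792019. Wnt3 and Wnt9b on chromosome 11 share their longest run (103771001 to 103776000, at 5.28% and 5.59%), which holds the start of Wnt3 and the outer edge of Wnt9b. Wnt1 and Wnt10b on chromosome 15 each had a run of their own, 5 kb at 3.76% and 4.57% for Wnt1 and 3 kb at 4.35% and 5.05% for Wnt10b. Wnt3a and Wnt9a, also on chromosome 11, had 5 kb at 6.49% and 5.62% and 3 kb at 6.19% and 7.02%. In all, 16 windows belonged to 2 Wnt loci.

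**Figure D3:**
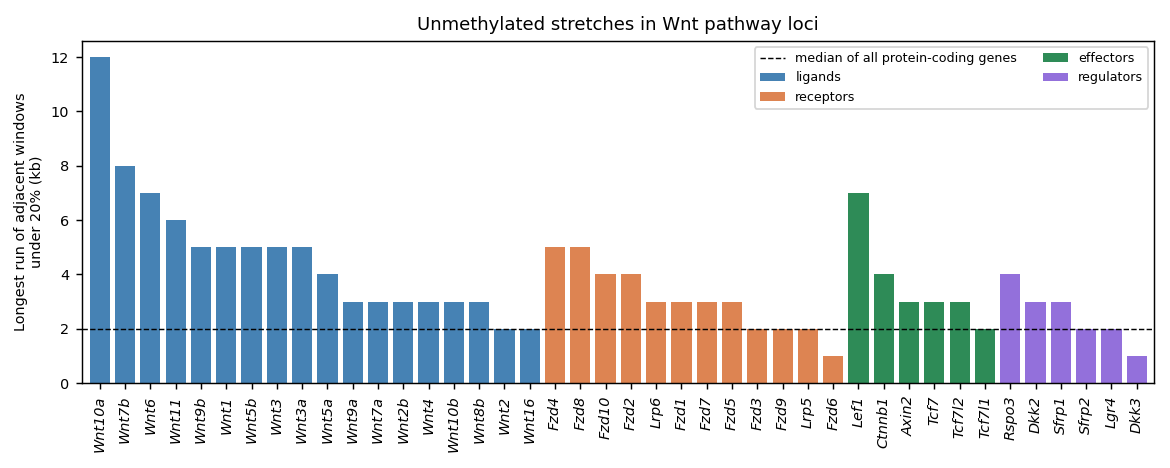
Length in kb of the longest run of adjacent 1-kb windows under 20% methylation, by the mean of 6 samples, that overlaps the locus of each Wnt pathway gene (gene span and 5 kb flanks). A run is counted in full, also where it reaches past the locus, as that of Wnt6 does. Bars are coloured by role and the dashed line is the median of all protein-coding genes, 2 kb. Wnt10a has the longest run, 12 kb, and 9 of the 18 ligands reach 5 kb.

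The least methylated ends of all members were those of receptors. The end of Lrp6, a co-receptor of canonical signalling, lay at 0.143%, 0.390% and 0.362% in mAdu against 0.299%, 0.651% and 0.432% in aged. That of Fzd5 lay at 1.27%, 0.320% and 0.536% in mAdu against 0.825%, 0.354% and 0.601% in aged. Fzd2 (1.04%), Fzd10 (1.15%) and Fzd4 (1.15%) followed, then Fzd8 (5.65%), Fzd7 (5.69%), Fzd9 (17.1%) and Fzd6 (18.3%). The highest were Lrp5 (32.6%), Fzd1 (25.3%) and Fzd3 (24.7%), with 24.8%, 25.3% and 25.4% in mAdu against 26.3%, 25.2% and 25.1% in aged for Fzd1 and 26.6%, 22.7% and 24.4% in mAdu against 24.0%, 26.3% and 24.1% in aged for Fzd3, and in Lrp5 the stretch averages a pair of windows that lie on either side of a boundary: 1.02% in mAdu and 2.94% in aged in the inner one (chromosome 19, 3686001 to 3687000), and 61.9% and 64.5% in the outer one.

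Most Frizzled genes are short, several with the coding region in a single exon, but the bodies of Fzd3 and Fzd6 hold 51 and 32 windows. Levels over Frizzled bodies varied widely. The body of Fzd2, a Frizzled of developing tissues, was at 7.37%, 6.90% and 8.25% in mAdu against 8.12%, 7.13% and 7.51% in aged, with overlap. Fzd4, the Frizzled receptor of retinal and brain vessels, had the next lowest receptor body, 14.3%, followed by Fzd8 (20.4%), Fzd1 (36.3%), Fzd7 (42.9%), Fzd5 (54.3%) and Fzd6 (66.2%). Fzd3, a receptor of planar polarity and axon guidance, was the most methylated body of all members at 83.2%, with 82.5%, 83.5% and 83.5% in mAdu against 82.9%, 83.2% and 83.5% in aged. The large co-receptor genes lay at 73.8% (Lrp5) and 76.7% (Lrp6).

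The effectors had methylated bodies, and the ends of Lef1 and Tcf7 held little methylation. Lef1, a transcription factor that beta-catenin binds, had 1.86%, 1.84% and 1.84% in mAdu against 1.64%, 2.32% and 2.38% in aged at its end, and a 7 kb run (chromosome 3, 131106001 to 131113000) at 3.77% in mAdu and 4.01% in aged. Tcf7, its close relative, lay at 2.47%, Ctnnb1 at 12.5%, Tcf7l2 at 20.8% and Tcf7l1 at 23.7%. The end stretches of Tcf7l2 and Tcf7l1 take in a window outside the run at the edge, and the runs themselves lay lower. That of Tcf7l2 (chromosome 19, 55741001 to 55744000) had 0.430% in mAdu and 0.730% in aged. That of Tcf7l1 (chromosome 6, 72788001 to 72790000) had 1.82% and 1.88%. Tcf7 had 3.35%, 2.26% and 2.52% in mAdu against 1.79%, 2.57% and 2.34% in aged, and Tcf7l1 had 25.7%, 24.0% and 23.1% in mAdu against 22.2%, 24.3% and 23.0% in aged. Tcf7l2, a main nuclear partner of beta-catenin, had 19.3%, 19.9% and 22.0% in mAdu against 20.8%, 20.9% and 21.8% in aged. The groups of all 3 overlapped. Ctnnb1 had 14.0%, 13.3% and 11.4% in mAdu against 11.2%, 13.7% and 11.5% in aged, and a run of 4 kb from 120933001 to 120937000 on chromosome 9 at 1.90% and 2.65%. Its body, at 54.4%, was the least methylated of the effectors, whereas Tcf7l2 had 82.2%, Tcf7l1 78.3%, Lef1 77.8%, Axin2 71.9% and Tcf7 68.3%.

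Axin2, which beta-catenin induces and which restrains the pathway in turn, has its start inside the gene span. The span begins before its RefSeq start, so the edge lay at 69.1%, with 70.0%, 69.3% and 71.6% in mAdu against 68.7%, 65.3% and 69.5% in aged. The run that holds the RefSeq start (chromosome 11, 108920001 to 108923000) lay at 0.344%, 0.543% and 1.31% in mAdu against 0.597%, 1.37% and 0.579% in aged, with overlap (the window profiles of 6 genes).

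Of the regulators, Rspo3, Sfrp1 and Dkk2 had ends with little methylation. Rspo3, an R-spondin that enhances Wnt signals in vessels and elsewhere, had 2.22%, 1.32% and 2.01% in mAdu against 1.73%, 2.26% and 1.50% in aged at its end, with a 4 kb run at 2.69% in mAdu and 2.53% in aged. Sfrp1, a secreted inhibitor that binds Wnt proteins, lay at 2.85%, Dkk2, an antagonist at the co-receptor, at 4.08% and Sfrp2, a relative of Sfrp1, at 12.0%. Dkk2 had 5.33%, 4.23% and 3.39% in mAdu against 4.06%, 4.20% and 3.24% in aged, and Sfrp2 had 11.7%, 12.0% and 12.0% in mAdu against 11.2%, 12.8% and 12.6% in aged, both with overlap. Lgr4, a receptor of R-spondins, lay at 31.7%. Dkk3, a divergent Dickkopf, lay at 40.4%, with 41.2%, 40.1% and 42.1% in mAdu against 39.5%, 38.5% and 41.2% in aged. The innermost of its end windows (chromosome 7, 112158001 to 112159000) lay at 5.25% in mAdu and 3.34% in aged. Bodies lay between 52.1% (Sfrp2) and 80.7% (Lgr4), with Rspo3 at 70.5%, Sfrp1 at 71.1%, Dkk2 at 73.6% and Dkk3 at 78.5%.

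**Figure D4:**
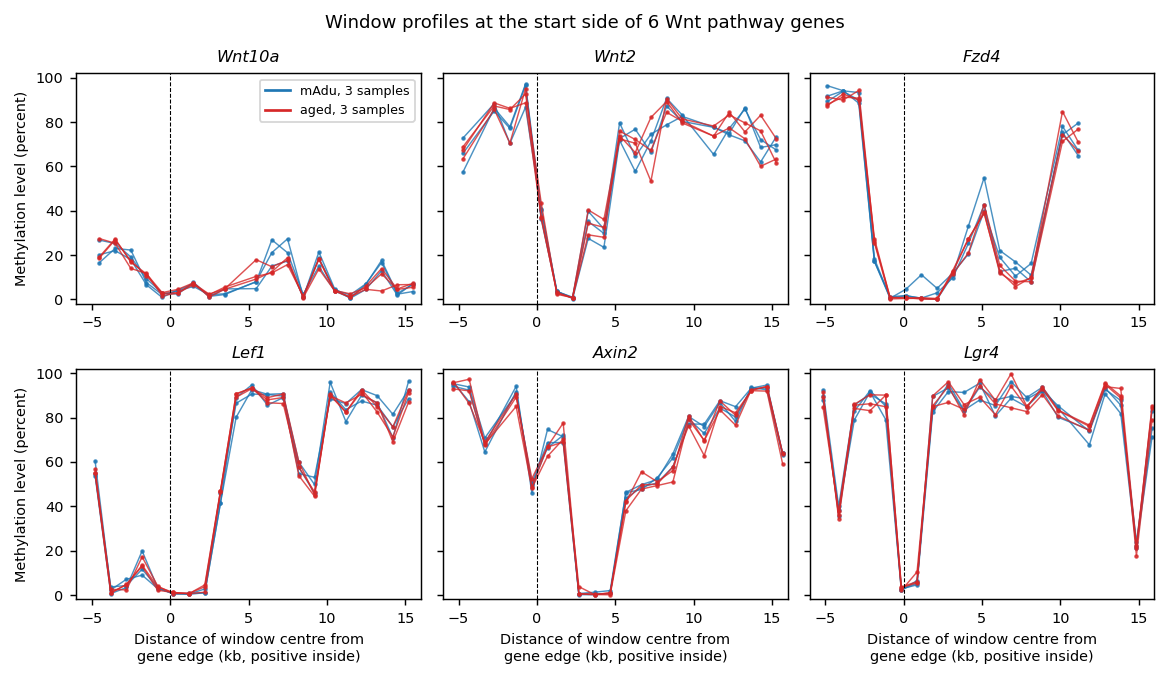
Methylation level in percent of single 1-kb windows (y axis) against the distance in kb of the window centre from the gene edge on the start side, or the less methylated edge where strand is unknown, positive inside the gene (x axis), for 6 Wnt pathway genes. Each line is 1 sample, 3 mAdu in blue and 3 aged in red, and the dashed line is the gene edge. The unmethylated stretch is long in Wnt10a and Lef1, short in Lgr4, and lies inside the gene span in Wnt2 and Axin2.

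Lowly methylated windows also lay deep inside the Wnt genes. Among windows more than 2 kb from a gene edge and from any RefSeq start of the gene, 183 of 1480 in the members lay under 50% (12.4%), against 7.69% over all protein-coding genes. The share was 19.4% in ligands, 13.2% in receptors, 8.37% in effectors and 7.39% in regulators. Lrp5 held 17 such windows, Tcf7l1 and Wnt5b 16 each, Wnt6 11, and Lrp6, Tcf7l2 and Wnt3a 10 each, and in Wnt10a all 6 interior windows lay under 20%. In Lrp5 the lowest were at 3.73% in mAdu and 3.43% in aged (chromosome 19, 3681001 to 3682000) and at 3.99% and 3.58% (3669001 to 3670000). In Tcf7l1, mostly a repressor in the absence of beta-catenin, a window at 8.87% and 5.31% (chromosome 6, 72663001 to 72664000) and in Tcf7l2 one at 8.83% and 6.02% (chromosome 19, 55839001 to 55840000) were the lowest. Wnt5b held 4 adjacent windows from 119479001 to 119483000 on chromosome 6 with group means between 0.215% and 3.67%. Starts of other transcripts or of overlapping genes may lie in such windows, since exons were not used here and 12 of the members have no RefSeq promoter in the tables used.

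Between 8 and 18 months no Wnt pathway gene passed the test at its end, over its body or over its locus. The 42 ends gave a median difference of 0.139 points (aged minus mAdu), against 0.0316 points over all genes, and single ends differed by -2.47 points (Axin2) to 2.41 points (Lgr4). The Axin2 value is that of its methylated edge, and around its RefSeq start the difference was 1.36 points. Over bodies the median was -0.0650 points against -0.0392, and over loci, the gene span with 5 kb on either side, 0.152 points against -0.0494. Intervals of 95% stayed within 5 points on either side of 0 at 38 of 42 ends, 39 of 40 bodies and 41 of 42 loci. Of all genes 61.9%, 91.7% and 88.7% did so. Within 2 points stayed 15 ends (35.7%), 21 bodies (52.5%) and 22 loci (52.4%), against 11.4%, 47.4% and 53.1% of all genes. The median end level was 9.32%, so 5 points is a wide band for many of these ends. The variance in the model also followed the level. A p that misses the threshold does not show that the levels were equal.

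Limma with Benjamini-Hochberg adjustment over all genes called 0 of 42 Wnt ends, 0 of 40 bodies and 0 of 42 loci at an adjusted p under 0.05, with smallest adjusted p-values of 0.962, 0.982 and 0.980. Over all genes it called 0.00524% of ends, 0.0171% of bodies and 0% of loci. At an unadjusted p under 0.05 the members gave 1 end, higher in aged, where 4.98% of all ends passed (2.32% higher and 2.67% lower). They gave 2 bodies, both lower, where 4.97% of all bodies passed (2.29% higher and 2.68% lower), and 1 locus, lower, where 4.82% of all loci passed (2.08% higher and 2.74% lower). The groups did not overlap at 1 end with higher and 2 ends with lower values in aged, where all ends gave 5.19% and 4.99%, or 10.2% in all. They were apart over 0 bodies with higher and 2 bodies with lower values, where all bodies gave 4.63% and 5.41%, or 10% in all. Over loci they were apart in 1 with higher and 2 with lower values, where all loci gave 4.52% and 5.62%, or 10.1% in all. The members' shares are near or under these backgrounds. An exact permutation test of 3 against 3 samples cannot give a p below 0.1.

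Lgr4 was the end with the smallest p. Its end lay at 29.3%, 30.9% and 31.3% in mAdu against 32.5%, 33.3% and 33.0% in aged, so each aged sample was above each mAdu sample. The difference was 2.41 points (SE 0.936, limma adjusted p = 0.962, from 0.866 to 0.980 over the alternatives). With an end of 500 bp outside to 250 bp inside it was 0.554 points, and with 2000 bp outside to 1000 bp inside 0.587 points. The difference came mainly from the window outside the gene (chromosome 2, 109916001 to 109917000), at 83.5% in mAdu and 88.4% in aged, whereas the promoter window differed by 0.554 points. The 5 kb flanks and body of Lgr4 taken as a locus lay at 78.1% and 78.3%.

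Fzd4 had the smallest p among receptors, at its end, over its body and in a single window. Its end, already nearly free of methylation, lay at 1.45%, 2.51% and 1.11% in mAdu against 0.309%, 0.799% and 0.741% in aged, so the groups were apart. The difference was -1.07 points (SE 0.472, limma adjusted p = 0.962). It was -0.663 points without mAdu replicate 2, and it turned to 0.767 points when the end ran from 2000 bp outside to 1000 bp inside. Its body lay at 16.9%, 15.5% and 13.8% in mAdu against 13.3%, 13.4% and 12.8% in aged, again without overlap but with mAdu replicate 3 close to the aged samples. The difference was -2.21 points (95% interval from -4.20 to -0.217, limma adjusted p = 0.982, from 0.864 to 0.998 over the alternatives). It was -1.46 points without mAdu replicate 1 and -0.712 points over a body taken from 2000 bp inside the edges, while leaving out mAdu replicate 2 gave -2.16 points. In single windows of the unmethylated stretch mAdu replicate 2 stood apart: from 89405001 to 89406000 on chromosome 7 the samples were at 0.464%, 11.1% and 0.579% in mAdu against 0.501%, 0.103% and 0.725% in aged.

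At the outer shore of that stretch the aged samples were the higher ones. The window from 89402001 to 89403000, which ends 1366 bp before the gene span of Fzd4, lay at 17.1%, 17.1% and 18.4% in mAdu against 25.5%, 27.4% and 26.1% in aged, a gap wider than the range of either group. The difference was 8.83 points (SE 1.34, 95% interval from 5.65 to 12.0), the smallest p of the 2133 Wnt windows, and it did not pass over all windows of the genome (limma adjusted p = 0.609, from 0.609 to 0.983 over the alternatives). Its outer neighbour had 90.6% in mAdu and 91.6% in aged, and its inner neighbour had 0.771% and 0.623%. Beyond the far end of Fzd4, the window from 89411001 to 89412000 lay at 16.9%, 10.5% and 14.0% in mAdu against 7.24%, 5.78% and 8.24% in aged (-6.72 points, limma adjusted p = 0.978).

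Axin2 was lower in each aged sample over its body and its locus, without passing. The body lay at 72.5%, 72.5% and 72.4% in mAdu against 70.6%, 71.1% and 72.0% in aged, a difference of -1.24 points (95% interval from -2.42 to -0.0564, limma adjusted p = 0.982). The locus lay at 75.2%, 74.8% and 74.6% in mAdu against 73.0%, 73.6% and 74.4% in aged, a difference of -1.18 points (limma adjusted p = 0.980). In both, aged replicate 3 was the nearest to the mAdu samples.

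The remaining members with small p-values had overlapping groups in most cases. At ends these were Fzd2, with 1.26%, 1.09% and 1.94% in mAdu against 0.331%, 0.948% and 0.647% in aged and no overlap, Lrp5, with 31.0%, 30.6% and 32.8% in mAdu against 32.9%, 35.7% and 32.5% in aged, and Sfrp1, with 1.73%, 2.47% and 3.08% in mAdu against 3.77%, 2.38% and 3.69% in aged. Over bodies Wnt3a, a canonical ligand, had 56.2%, 55.7% and 57.5% in mAdu against 57.1%, 58.1% and 58.1% in aged, Lrp6 had 77.2%, 77.4% and 76.8% in mAdu against 76.2%, 76.0% and 77.0% in aged, and Sfrp2 had 52.8%, 53.2% and 52.2% in mAdu against 53.0%, 51.4% and 50.2% in aged. In Lrp6 the aged replicate 3 reached into the mAdu range. Over loci Fzd2 had 41.8%, 41.6% and 43.2% in mAdu against 40.5%, 40.6% and 41.7% in aged, and Fzd4 had 37.3%, 36.3% and 34.7% in mAdu against 35.0%, 34.2% and 34.9% in aged. Wnt3a had 55.8%, 55.0% and 56.8% in mAdu against 56.5%, 57.2% and 56.9% in aged over its locus, with overlap, and Sfrp2 had 58.7%, 58.5% and 58.5% in mAdu against 58.3%, 57.5% and 57.8% in aged. Without flanks the difference of Fzd2 turned from -1.30 to 0.226 points. Of these 4 loci only that of Sfrp2 had groups apart, and the locus of Wnt9b, with 58.6%, 58.9% and 58.3% in mAdu against 59.3%, 59.0% and 59.0% in aged, was apart in the other direction. All had limma adjusted p-values from 0.962 to 0.982.

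The groups of the remaining key members overlapped. At the end, the difference was -0.620 points for Wnt2, -0.992 for Wnt5a, 0.266 for Lef1, -0.763 for Ctnnb1, -0.0214 for Rspo3 and 0.162 points for Lrp6. Over the body it was 0.221 points for Lef1, 0.723 for Ctnnb1, -0.661 for Rspo3 and -0.542 points for Lrp5 (limma adjusted p from 0.977 to 0.998 over these values).

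**Figure D5:**
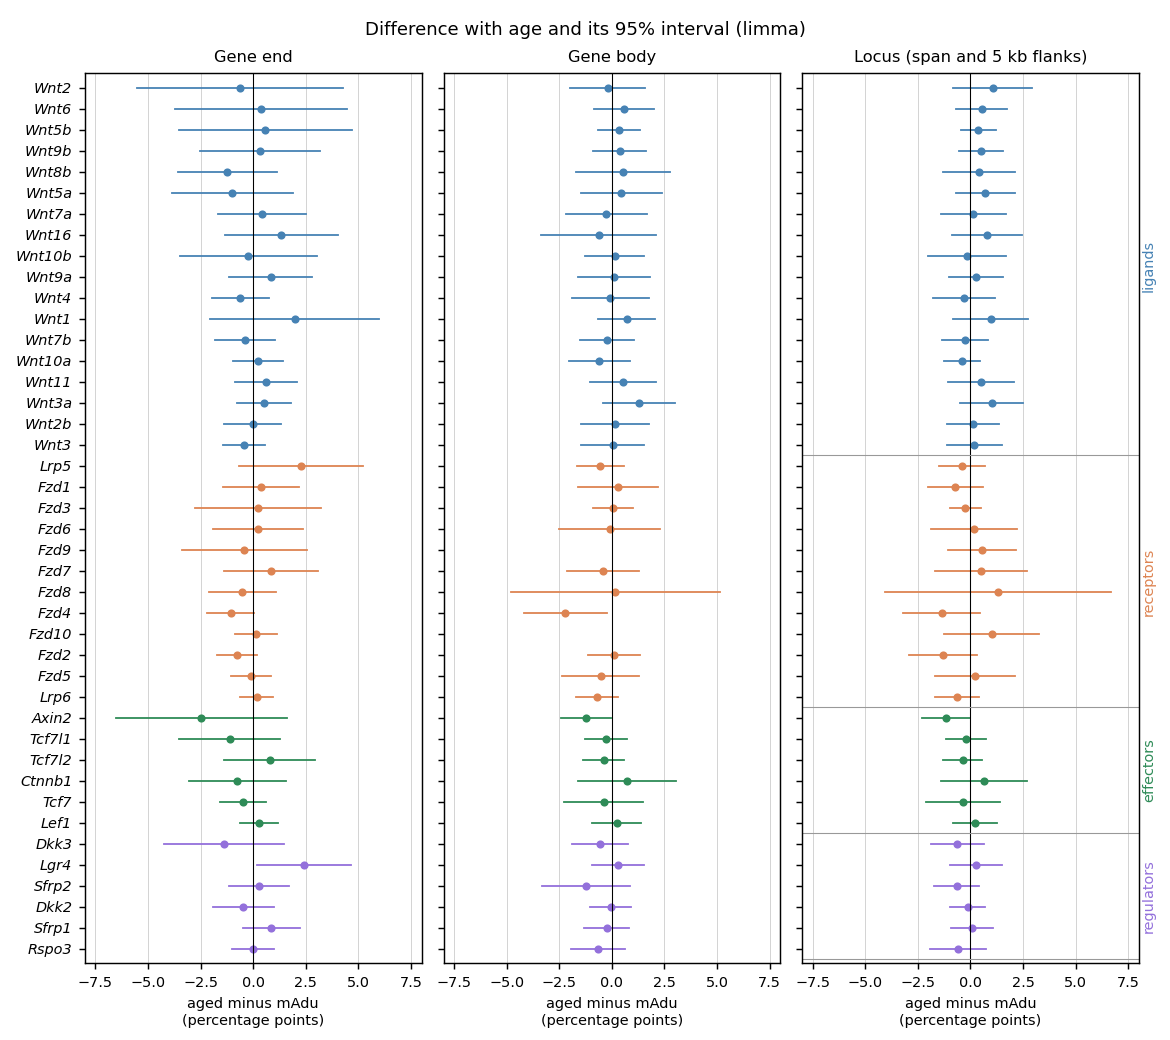
Difference in methylation between the age groups, aged minus mAdu, in percentage points (x axis) for each Wnt pathway gene (y axis) at the gene end, over the gene body and over the locus. Points are limma estimates and bars their 95% intervals, with 3 samples per group, coloured by role. Nearly all intervals include 0, apart from the end of Lgr4, the bodies of Fzd4 and Axin2 and the locus of Axin2, none of which passed after adjustment.

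By role, the sign of the small differences varied, and no list was tested. Ligand loci were lower in aged in 4 of 18 cases and higher in 14, with a median of 0.391 points. Of all loci 53.3% were lower, with a median of -0.0494 points. The count of higher ligand loci ranged from 11 without flanks to 16 with flanks of 10 kb. Some neighbouring ligand loci share windows, so the 18 are not all separate. Among the bodies of receptors, effectors and regulators, 15 of 22 were lower in aged, against a background of 52.3%, with medians of -0.262, -0.326 and -0.402 points, and ligand bodies were lower in 6 of 18. Over loci 6 of 12 receptors, 4 of 6 effectors and 4 of 6 regulators were lower, against the same 53.3%. The medians of these loci were -0.0381, -0.280 and -0.363 points. Over all members 20 of 42 ends (background 49.1%), 21 of 40 bodies and 18 of 42 loci were lower.

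At the scale of single windows 0 of the 2133 in Wnt loci passed in limma, against 0.0211% of all windows, and the smallest adjusted p was 0.609. At an unadjusted p under 0.05 there were 65 (3.05%), 34 higher and 31 lower in aged, against a background of 4.67% (2.15% higher and 2.51% lower). The groups did not overlap in 10.5% of the windows, 95 higher and 128 lower, where all windows gave 10% (4.75% higher and 5.28% lower). The mean was lower in aged in 1087 windows (51.0%), where all windows gave 51.1%. After that of Fzd4, the smallest p-values belonged to windows that were mostly highly methylated and inside genes. In Lrp6 the window from 134472001 to 134473000 (chromosome 6) had 94.8% in mAdu and 87.2% in aged and that from 134528001 to 134529000 had 93.9% and 87.3%. In Lgr4 a window of the same kind (chromosome 2, 110003001 to 110004000) had 89.6% and 96.4%, and in Rspo3 (chromosome 10, 29457001 to 29458000) 83.4% and 74.6%.

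The others of the 10 windows with the smallest p were in Lrp5 (chromosome 19, 3673001 to 3674000, 97.1% in mAdu and 92.7% in aged), in Lef1 (chromosome 3, 131206001 to 131207000, 85.5% and 91.1%), beside Fzd8 (chromosome 18, 9217001 to 9218000, 82.2% and 68.7%) and beside Wnt10a (chromosome 1, 74806001 to 74807000, 2.35% and 5.25%). Each of the 8 windows named after the upstream Fzd4 window, and the Fzd4 window beyond the far end, had a limma adjusted p of 0.978. Among the 183 interior windows under 50%, 97 were lower in aged (53.0%, against 51.1% of all windows) and 10 had an unadjusted p under 0.05 (5.46%, against 4.67%), shares near the background.

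No other gene of the pathway passed the age test either. Of 65 listed genes, covering secretion and agonists, antagonists, the destruction complex, nuclear partners and planar polarity, 63 had an end, 62 a body and 63 a locus, and limma called 0 of each. At an unadjusted p under 0.05 there were 1 end, 2 bodies and 5 loci, where 4.98%, 4.97% and 4.82% of all genes passed. Their ends had a median level of 22.3%, above that of the 42 members, and a median difference of 0.119 points. Their bodies had a median level of 72.6%, near the 73.3% of all genes. The end with the smallest p was that of Znrf3, a ubiquitin ligase that removes Frizzled from the surface, with 0.521%, 0.330% and 0.691% in mAdu against 2.74%, 2.50% and 0.830% in aged. Next came Lgr6 (15.4% and 18.0%), Rspo2 (65.9% and 60.0%), Tspan12, a partner of Fzd4 (69.3% and 63.1%), and Sostdc1 (51.4% and 54.3%), all with a limma adjusted p of 0.962.

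Bodies of these genes were lower in aged in 38 of 62 cases (61.3%) and loci in 42 of 63 (66.7%), where 52.3% of all bodies and 53.3% of all loci were lower, with medians of -0.138 and -0.197 points. The difference between these genes and the 42 members was not tested. The smallest p-values over bodies were those of Rspo2 (75.5% in mAdu and 73.8% in aged), Bcl9 (78.9% and 80.3%), Wls, which escorts Wnt proteins for secretion (79.4% and 77.5%), Prickle1 (65.4% and 66.4%) and Sp5, a target of beta-catenin (15.2% and 16.3%), with a limma adjusted p of 0.982. Over loci they were those of Notum, a Wnt deacylase (53.6% and 55.0%), Tle1 (69.0% and 67.7%), Rspo2 (75.4% and 73.6%), Bcl9 (77.2% and 78.5%) and Prickle1 (64.7% and 65.6%), with a limma adjusted p of 0.980.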

How the data were processed

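Methylation was measured in 6 samples of sorted lung endothelial cells, 3 mAdu and 3 aged. The authors deposited, per window of 1000 bp and sample, a methylation fraction from 0 to 1, for 1684140 windows of the 19 autosomes. Reads were aligned with BWA 0.7.8 and mm10 was used, per the submitters' processing notes. For the CpG caller, coverage filter, smoothing and averaging, nothing is given in the sources used here. Coverage is unknown, so every window had equal weight. The 1683697 windows measured in each of the 6 samples were kept, and adjacent ones are not independent.

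Fractions were multiplied by 100. Gene spans came from RefSeq GRCm38.p6, which shares its coordinates with mm10, and all 42 members were found. The level of a region is the plain mean over overlapping windows: the gene end (1000 bp outside to 500 bp inside the edge), the body (from 500 bp inside each edge, at least 3 windows), and the locus (the span and 5 kb flanks). RefSeq promoters gave a strand for 79.6% of protein-coding genes, under the 80% set for using the start side, so the less methylated end was used and the start side was an alternative. It was the same end for 27 of 30 members. Limma 3.58.1 in R 4.3.3 was fitted on percent values of all features of a kind, with a term for group alone and a trend of variance on level, with Benjamini-Hochberg adjustment at 0.05, and was tested on simulated data. Intervals are 95% intervals of that model. A run is a series of adjacent windows under 20%, and a break in the table ends it. Runs that overlap a locus were counted at full length. Other steps used Python 3.11.15.

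The members and gene lists were chosen with earlier results of these data known. Sample values were given for the 5 members with the smallest p per kind of region, the 3 most and least methylated ends of each role, and 9 set genes (Fzd4, Lrp5, Lrp6, Ctnnb1, Lef1, Axin2, Wnt2, Wnt5a and Rspo3), with the 10 windows and, per kind of region, the 5 other pathway genes of smallest p. Alternatives were a logit scale, no variance trend, no windows with a value under 0.01% or above 99.99%, each sample left out, a replicate block, and other widths of ends, bodies and flanks.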

Additional observations from a re-analysis of the deposited data

How the results depend on the processing

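No Wnt end, body, locus or window passed under any alternative run: the counts were 0 with logit values, with no variance trend, without extreme values (1 window of the Wnt loci held any), at other widths, at the RefSeq start side, and with each replicate left out (lowest 0, highest 0). With the replicate number as a block, the counts were also 0 in each kind of region. Same-numbered samples of both groups had deviations that correlated across windows with r of -0.0116, -0.0167 and -0.0006, within the range of the other pairs (-0.0088 to 0.0202) or below it. The labels do not say whether the numbers pair samples. These correlations cannot decide it, because deviations from a mean of 3 samples constrain one another. The medians over members were near 0 and changed sign: from -0.173 (without mAdu replicate 2) to 0.267 points at ends (2000 bp outside to 1000 bp inside), from -0.183 (without mAdu replicate 2) to 0.0277 points over bodies (without mAdu replicate 1), and from -0.110 (no flank) to 0.152 points over loci. The median at ends was also below 0 without aged replicate 2 (-0.0122), that over bodies above 0 without aged replicate 1 (0.0249), and that over loci below 0 without mAdu replicate 3 (-0.0740) or aged replicate 3 (-0.00426). Changes of sign were counted only for the members with the smallest p-values at ends, over bodies and over loci. The other named members were left out of the count. Of 177 such values under alternatives, 2 had the other sign. They were the Fzd4 end (0.767 points at the widest setting) and the Fzd2 locus (0.226 points with no flank). Other named differences moved by over 1.5 times when 1 sample was left out: the Lrp5 end (1.27 points without aged replicate 2), the Sfrp1 end (0.504 without mAdu replicate 1, 1.30 without aged replicate 2), the Sfrp2 body (-1.96 without aged replicate 1, -0.570 without aged replicate 3), and the loci of Fzd2 (-0.807 without mAdu replicate 3), Fzd4 (-0.775 without mAdu replicate 1, -2.05 without mAdu replicate 3) and Wnt3a (0.567 without mAdu replicate 2). The counts by role were chosen after seeing the data: with each replicate left out, 12 to 15 of 18 ligand loci were higher in aged, and 14 to 18 of 22 bodies of the other roles were lower, or 13 of the 18 that could be measured from 2000 bp inside the edges. At the RefSeq start side, where 30 members could be measured, Wnt1 also had groups apart (17.5% in mAdu and 19.5% in aged, limma adjusted p = 0.967). The differences there were 1.36 points for Axin2, 2.48 for Wnt8b and -0.390 for Sfrp2. Each had the other sign at the end used (-2.47, -1.24 and 0.268 points). These 3 ends were outside the count of 177 values. Unknown coverage and 3 samples per group limit the precision; at ends, 1 to 3 windows carry each value.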
